A study of Mus musculus with 6 samples.

Results

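The genes that encode the kinesin and cytoplasmic dynein motors of intracellular transport, with dynactin, were followed in the ganglion cell layer of the mouse retina after optic nerve crush. Probe sets, the groups of short oligonucleotides that each read a transcript on the array, were taken when their gene symbol named a kinesin heavy chain (Kif), a kinesin light chain (Klc), a cytoplasmic dynein subunit (Dync1, Dync2), a dynein light chain (Dynl) or a dynactin subunit (Dctn). The array held 59 such genes in 141 probe sets that carried a single symbol. Each gene was represented by the probe set with the highest mean over the 6 arrays, and 51 genes had a mean intensity of at least 40 and were measured, of 15103 measured genes in all. The other 8 (Kif14, Kif20a, Kif24, Kif26a, Kif27, Kif28, Kif2b and Kif7) were below that mean and are not described further.

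The study asked how gene expression in the layer had changed 6 hrs after the injury. In male C57BL/6J mice the optic nerve of one eye was crushed with forceps for 10 sec, and 3 crushed eyes were compared with 3 control eyes, the uninjured contralateral eyes. About 6000 cells of the ganglion cell layer were collected from each eye by laser capture, and their RNA was amplified and hybridized to 1 Affymetrix array per eye. The captured layer is not RGCs alone but also takes in glia, vessels and other neurons, so that fewer cells of a type and less RNA per cell cannot be told apart in these values. Control eyes came from injured animals. The p-values of the main fit rest on how the difference between crushed and control eye varied over the 3 pairs of same-numbered eyes. That spread is estimated partly from all tested probe sets, and only these 6 samples stand behind it.

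Kinesins and dynein use ATP to walk along microtubules. In axons, where the plus ends of microtubules point away from the soma, most kinesins carry vesicles, mitochondria and cytoskeletal proteins outward, and cytoplasmic dynein, with its cofactor dynactin, brings endosomes, autophagosomes and injury signals back to the soma. RGCs have long axons and rely on both directions, and some other kinesins work in cilia or in the mitotic spindle.

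Some facts of the arrays touch every value below. Array medians lay between 131.2 and 153.9 on the crush arrays, against 141.1 to 142.6 on the control arrays. The array of crush eye 2 stood apart along the first principal component (44.2% of the variance), and it gave the lowest of the 6 values for 36.5% of all genes. Of the motor genes, 27 of 51 (52.9%) had their lowest value there. Ganglion cell markers were present, 13 of the 14 listed being measured (Pou4f2 was not analysed here), with a summed intensity of 56577 to 70894 in crush eyes and 63216 to 64992 in control eyes. Rod markers (8 of 10 measured, summed 38022 to 44468 in crush eyes and 26651 to 49746 in control eyes) and pigment epithelium markers (4 of 5 measured, summed 2259 to 8182 in crush eyes and 820 to 1357 in control eyes) were also detected. Markers of other cell types also differed on average. All 7 measured Muller cell markers were lower on average (summed 37225 to 40838 in crush eyes and 39287 to 45725 in control eyes), as were all 4 bipolar cell markers (summed 9175 to 11028 in crush eyes and 11148 to 13795 in control eyes) and 7 of 8 amacrine cell markers (summed 30868 to 35264 in crush eyes and 34464 to 39496 in control eyes). Gfap of astrocytes was called higher at 0.85 (limma adjusted p = 0.642). The part of these cells, or of the array of crush eye 2, in the results on motor genes was not tested.

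The transport motors as a group showed little difference between crushed and control eyes. No motor gene passed a Benjamini-Hochberg adjusted p of 0.05 in the limma fit, which tested all 33169 probe sets of sufficient intensity with the eye number as a block, and the lowest adjusted p among them was 0.642. At an unadjusted p under 0.05 the fit called 1 of 51 motor genes (1.96%), against 5.03% of all genes. That gene was Kif15, which was lower after crush. Among all genes 2.76% were called higher and 2.27% lower at this threshold. In its brightest probe set no motor gene met the criteria of the study's methods (unadjusted p under 0.05, ratio of group means over 1.2, difference of group means over 80), which 2.19% of all genes met, and 0 of the motor genes were called higher. Dimmer probe sets of Kif1c (lower) and Kif13a (higher) did meet these criteria.

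The size of the differences was small as well. The differences are given as log2 values, crushed minus control eye, averaged over the 3 pairs of eyes that share a number, and they ranged between -0.80 and 0.38 over the 51 genes. On average 17 genes were higher and 34 lower after crush, with a median of -0.06, against -0.02 over all genes. The 95% confidence interval lay within 0.5 either way for 26 of the 51 genes and within 1 either way for 43. Differences of at least 0.5 were therefore compatible with the intervals of the remaining 25 genes.

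The pairs of eyes did not show the same picture. The median over the motor genes came to -0.00 for pair 1, to -0.25 for pair 2 and to -0.01 for pair 3, against 0.01, -0.10 and 0.04 over all genes. In pair 2, 35 of 51 motor genes were lower in the crushed eye, compared with 26 in pair 1 and 26 in pair 3. Without pair 2 the median over the motor genes was 0.01, against 0.03 over all genes, and 30 motor genes were higher and 21 lower. In each of the 3 pairs the motor median was below that of all genes, and the gap was widest in pair 2.

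The share of genes that moved one way in all 3 pairs was below or close to that of the whole array. Higher in the crushed eye of all 3 pairs were 4 motor genes (Klc4, Kif3c, Kif1c and Kif21a), 7.84% of them against 15.2% of all genes. Lower in all 3 pairs were 8 (Kif3b, Kif13b, Kif15, Kif2c, Dync2h1, Dync2li1, Dynlrb2 and Dctn6), 15.7% against 15% of all genes. For no motor gene did all crush values lie above all control values, as they did for 5.69% of all genes. For 3 of them (Kif13b, Kif15 and Kif2c; 5.88%) all crush values lay below all control values, as for 5.32% of all genes. Kif21a and Kif2c, as well as Dync2h1 and Dync2li1, are named here after their values were seen.

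**Figure D1:**
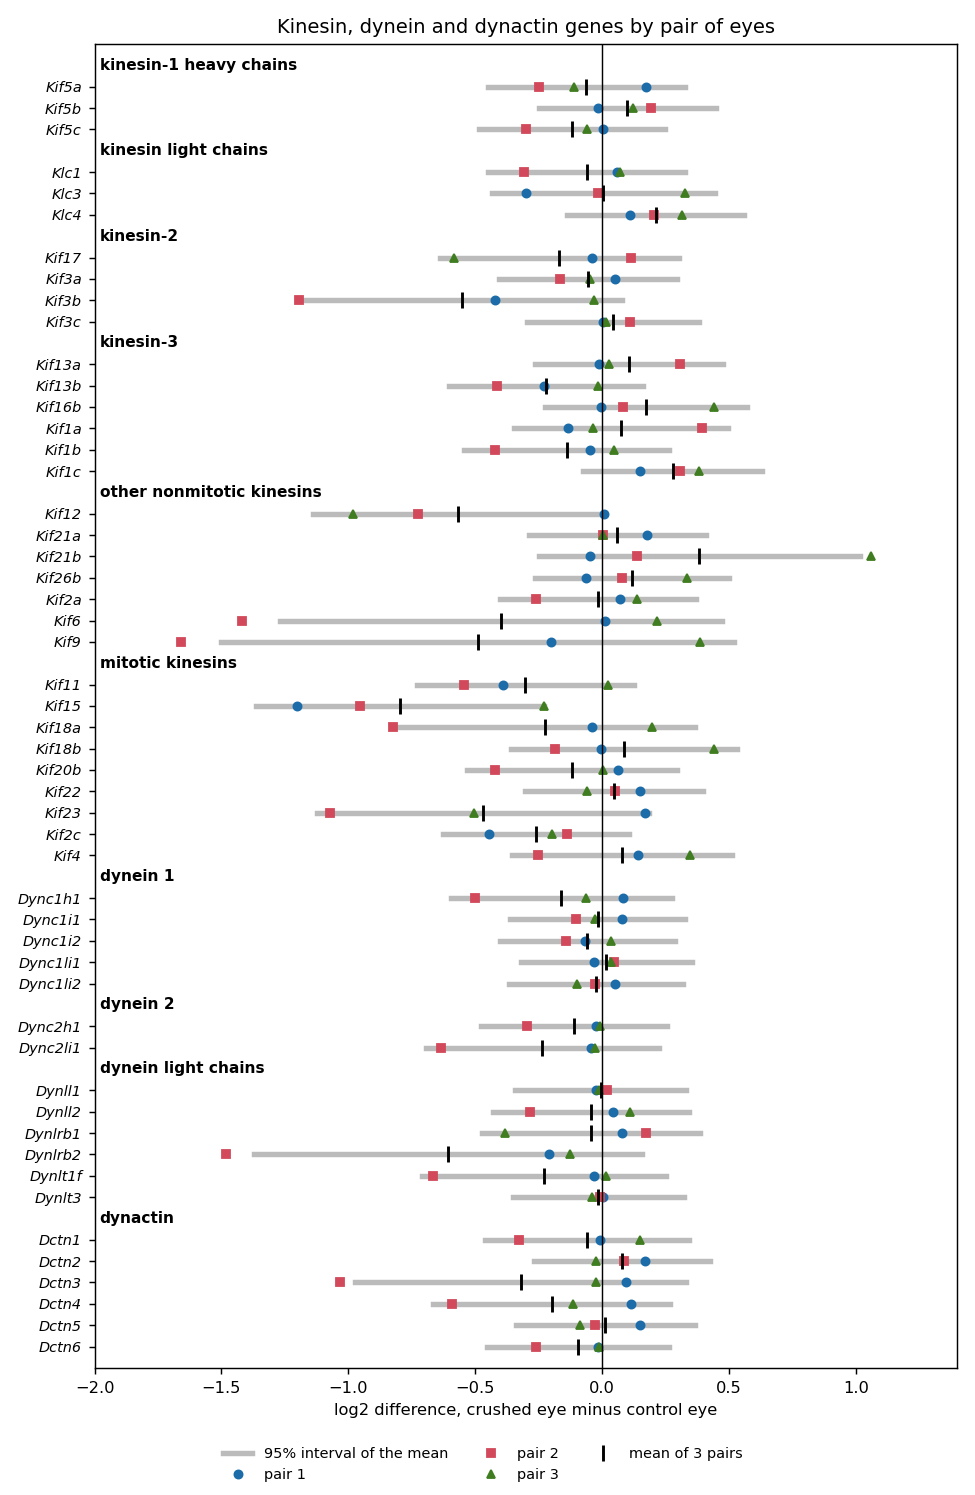
Log2 difference (crushed minus control eye) for each of the 51 motor genes (rows, grouped by role), with the 3 pairs of eyes as symbols, their mean as a black tick and its 95% confidence interval as a grey bar. Most means lie close to 0, the squares of pair 2 lie furthest to the left for many genes, and Kif15 has the only interval that leaves out 0.

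For kinesin-1, the main motor for outward transport in axons, no difference was detected in any heavy chain. Its heavy chain Kif5a, the neuronal form, had intensities of 6910.1, 5464 and 6609 in crush eyes 1, 2 and 3, against 6137, 6492 and 7134 in control eyes 1, 2 and 3. The groups overlapped, with the lowest value in crush eye 2, and the difference was -0.06 (95% interval -0.45 to 0.32, n = 3 pairs). Kif5b, the form made in most tissues, had 2799, 2929 and 3068 in crush eyes and 2831, 2566 and 2818 in control eyes. Its values overlapped too, and the difference was 0.10 (-0.25 to 0.45). Kif5c, a neuronal form enriched in motor neurons, had 9052, 7672 and 7876 in crush eyes and 9027, 9442 and 8207 in control eyes. The lowest value was again that of crush eye 2, and the difference was -0.12 (-0.48 to 0.25). The 2 other probe sets of Kif5c gave 0.09 and 0.02.

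The light chains, which link kinesin-1 to its cargo, were not called either. Klc1, the main light chain of neurons, had 8999.9, 7460.1 and 8833 in crush eyes and 8648, 9238 and 8423 in control eyes, a difference of -0.06 (-0.45 to 0.33). Klc3 had 1525, 1792 and 2069 in crush eyes and 1877, 1814 and 1648 in control eyes. Its pairs moved in different directions and averaged 0.00 (-0.44 to 0.44). Klc4 was higher in the crushed eye of every pair, with 928, 743 and 1072 in crush eyes and 859, 644 and 861 in control eyes, but the groups overlapped and the difference of 0.21 (-0.14 to 0.56) did not pass (limma adjusted p = 0.688). Klc2 was not analysed here.

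**Figure D2:**
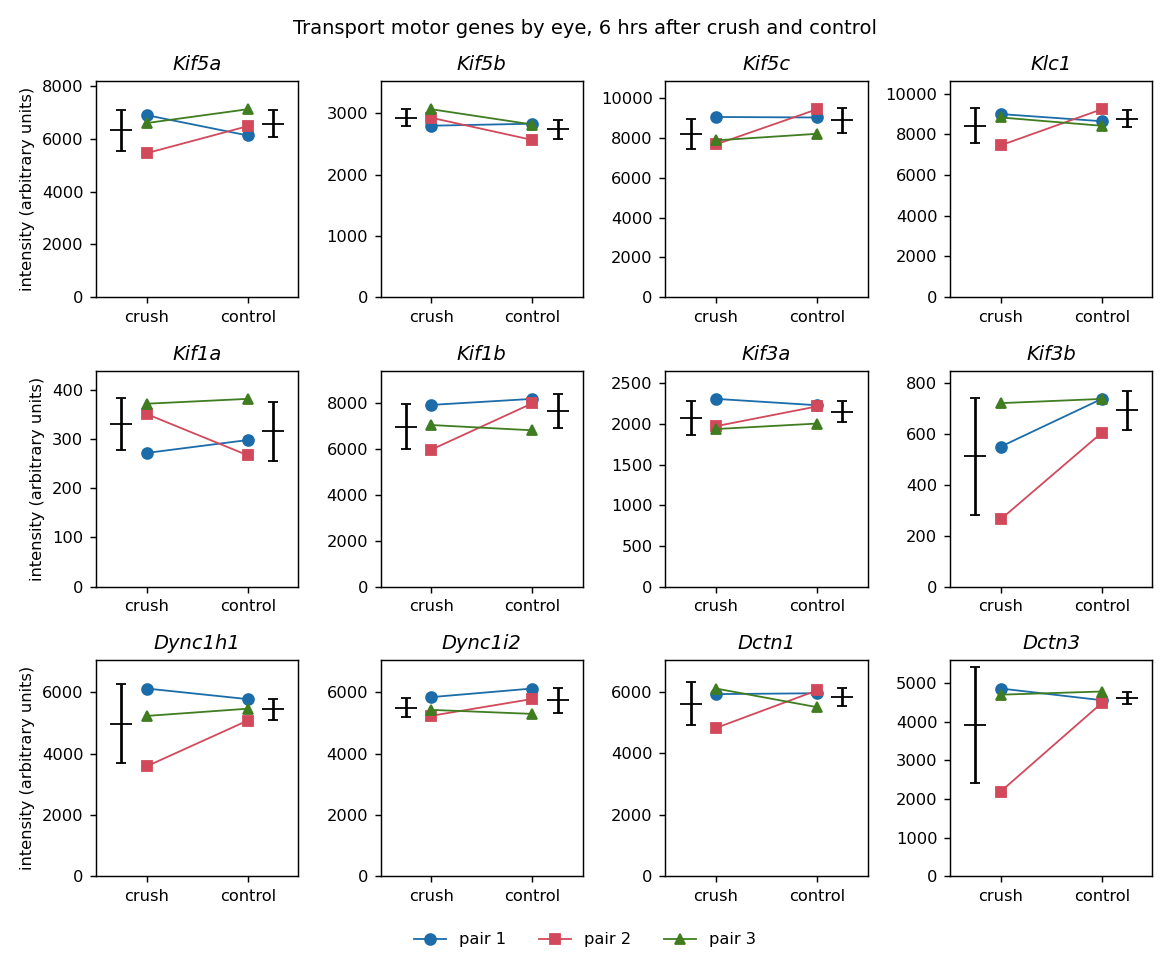
Intensities (linear axis, arbitrary units) of 12 transport motor genes in the 3 crush eyes and the 3 control eyes, with lines joining eyes of the same number, and with the mean and SD of each group (n = 3) as horizontal and vertical black bars. Crush and control values overlap in every panel, and the value of crush eye 2 is the lowest of the 6 for Kif5a, Kif5c, Klc1, Kif1b, Kif3b, Dync1h1, Dync1i2, Dctn1 and Dctn3.

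Kinesin-2 carries vesicles in axons and the material that builds cilia, as a trimer of Kif3a with Kif3b or Kif3c and the adaptor Kifap3. Kif3a had 2307, 1971 and 1936 in crush eyes and 2229, 2215 and 2004 in control eyes, a difference of -0.06 (-0.41 to 0.29). Its partner Kif3b had 549, 264 and 719.6 in crush eyes and 736, 604 and 736 in control eyes. Kif3b was thus lower in all 3 pairs, most of all in pair 2 (-1.19, against -0.42 in pair 1 and -0.03 in pair 3), and the average of -0.55 (-1.18 to 0.08) did not pass (limma adjusted p = 0.642). Without pair 2 it was -0.23, and 3 other probe sets of Kif3b gave -0.25, -0.09 and 0.12.

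The alternative partner Kif3c, found mainly in neurons, had 3872, 3941 and 4048 in crush eyes and 3862, 3654 and 4009 in control eyes. All 3 pairs were higher after crush, by little, and the difference was 0.04 (-0.30 to 0.38). A second probe set of Kif3c, with a mean of 2613, gave -0.25, and -0.94 in pair 2. Kif17, a homodimer that carries NMDA receptor subunits in dendrites and also enters cilia, had 1047, 1194 and 999 in crush eyes and 1077, 1103 and 1494 in control eyes. Its difference was -0.17 (-0.64 to 0.30), and the highest value was that of control eye 3.

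The kinesin-3 motors carry synaptic vesicle precursors, dense core vesicles and endosomes, and none of the 6 measured passed the test in its brightest probe set. In these probe sets 4 were higher and 2 lower on average. For Kif1b, Kif1c, Kif13a, Kif13b and Kif16b at least 1 other probe set had the opposite direction. Kif1a, the main carrier of synaptic vesicle precursors, had 271, 351 and 371 in crush eyes and 298, 267 and 381 in control eyes, a difference of 0.07 (-0.35 to 0.50). Kif1b, which carries mitochondria or synaptic vesicle precursors depending on the isoform, had 7901, 5956 and 7027 in crush eyes and 8164, 7974 and 6798 in control eyes. Its difference was -0.14 (-0.54 to 0.26), with the lowest value in crush eye 2, and 6 further probe sets ranged between -0.33 and 0.27. Kif16b, a motor of early endosomes, had 508, 619.5 and 502 in crush eyes and 510.2, 586 and 369.6 in control eyes, a difference of 0.17 (-0.23 to 0.57).

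Kif1c, which carries dense core vesicles and integrins, was the motor gene whose probe sets parted most. Its brightest probe set had 2152, 1844 and 2991 in crush eyes and 1940.0, 1493 and 2298 in control eyes, higher in all 3 pairs by an average of 0.28 (-0.07 to 0.63, limma adjusted p = 0.648, not called). A second probe set of the gene had 648, 236 and 401 in crush eyes and 937, 918 and 859.9 in control eyes. There all crush values lay below all control values, and the difference of -1.20 (SE 0.29) was called at the unadjusted threshold (limma adjusted p = 0.642). The dimmest of its probe sets had 41.8, 41.4 and 35.8 in crush eyes and 57.9, 72.7 and 48.5 in control eyes, and its difference of -0.57 (SE 0.15, limma adjusted p = 0.642) was called as well. That probe set averaged 39.7 in crush eyes and 59.7 in control eyes, so it passed the minimum of 40 only through the control eyes and its call carries no weight. The direction of Kif1c was therefore not settled by these arrays, and which transcripts each probe set reads was not tested.

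Kif13b and Kif13a, motors of membrane cargo that in neurons act in dendrites and axons, had no call in their brightest probe sets. Kif13b had 519, 414 and 548 in crush eyes and 608, 552 and 555 in control eyes. The crush values lay below the control values, but the average of -0.22 (-0.60 to 0.16) was not past the threshold (limma adjusted p = 0.697). A dim probe set of the gene, with 30.9, 94.7 and 56.3 in crush eyes and 29.4, 39.8 and 22.7 in control eyes, was called with a difference of 0.88 in the other direction (SE 0.28, limma adjusted p = 0.642). It averaged 60.6 in crush eyes and 30.6 in control eyes and passed the minimum of 40 only through the crush eyes, so that this call carries no weight. Kif13a had 1558, 2166 and 1575 in crush eyes and 1570.0, 1753 and 1546 in control eyes, a difference of 0.11 (-0.26 to 0.48). Its 4 other probe sets ranged between -0.49 and 0.40, and the highest of these, which was called (limma adjusted p = 0.642), is marked by the manufacturer as open to hybridization with other transcripts.

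Over all motor genes 28 had more than 1 probe set above the minimum, and for 18 of these the probe sets did not all have the same sign on average. Within pairs 1, 2 and 3 both signs occurred in 14, 18 and 17 of these 28 genes. Over the whole array this held for 3778, 3905 and 3661 of 6866 genes, so such discord was not particular to motor genes. Among the 106 probe sets of motor genes the fit called 3 higher (2.83%, against 5.16% of all probe sets) and 4 lower (3.77%, against 2.51%) at an unadjusted p under 0.05. The 4 lower ones were those of Kif15, 2 of Kif1c and 1 of Kif22. All 3 of the higher ones were second probe sets of Kif13a, Kif13b and Dync1h1, whose brightest probe sets were not called. Of these 7 calls, those of Kif15, of the dimmest Kif1c probe set and of Kif13b belong to probe sets that reached the minimum in 1 group alone. The spread between probe sets of one gene was widest in pair 2. The median SD of the pair difference within a gene came to 0.13, 0.45 and 0.19 in pairs 1, 2 and 3 for motor genes, against 0.15, 0.35 and 0.23 for the 6866 genes of the array with more than 1 probe set.

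**Figure D3:**
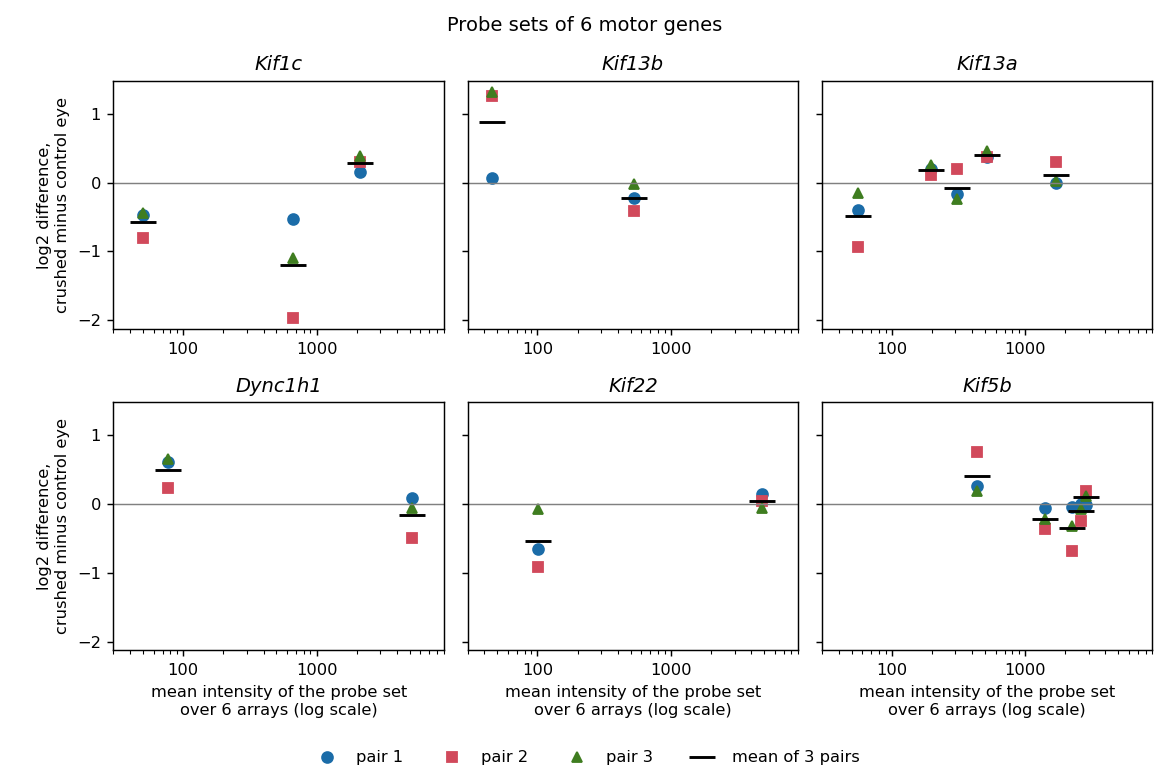
Log2 difference (crushed minus control eye) for every probe set of Kif1c, Kif13b, Kif13a, Dync1h1, Kif22 and Kif5b with a mean of at least 40, against the mean intensity of the probe set over the 6 arrays (log axis), with the pairs as symbols and their mean as a black tick. For Kif1c the brightest probe set lies at 0.28 and the other ones at -1.20 and -0.57, and the 5 probe sets of Kif5b spread between -0.35 and 0.40.

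Kif5b shows the same spread without a call. Its 5 probe sets gave average differences between -0.35 and 0.40, and the brightest, used above, is one of those that were higher. For Kif22 the brightest probe set (also marked as open to other transcripts) had 4665, 5082 and 4881 in crush eyes and 4203, 4909 and 5088 in control eyes. That gave 0.05 (-0.30 to 0.40), while a dim probe set had 75.4, 41.2 and 142 in crush eyes and 118, 77.7 and 149 in control eyes and was called at -0.55 (SE 0.20, limma adjusted p = 0.642).

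Of the other kinesins outside mitosis 7 genes were measured, 3 higher and 4 lower on average, with differences between -0.57 and 0.38, and none was called. At the ends of this range, and named after their values were seen, were Kif12 and Kif21b. Kif21b, a processive kinesin of neurons that also acts on microtubule ends, had 2524, 2384 and 3395 in crush eyes and 2607, 2169.6 and 1628 in control eyes. Its average of 0.38 (-0.25 to 1.02) came mostly from pair 3, where the difference was 1.06. Kif12 had 158, 80.9 and 89.0 in crush eyes and 157, 134 and 176 in control eyes, and its average of -0.57 lay just short of the unadjusted threshold (limma adjusted p = 0.642).

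Kif15, a plus-end motor that helps to keep the mitotic spindle bipolar, was the single motor gene called. Its intensities were low, 22.3, 32.2 and 42.0 in crush eyes and 51.3, 62.4 and 49.2 in control eyes. Crush and control values did not overlap, and the difference was -0.80 (SE 0.22, 95% interval -1.36 to -0.23, limma adjusted p = 0.642, lower in 3 of 3 pairs). The call was lost when pair 1 (-0.59) or pair 2 (-0.72) was left out, and only 1 probe set measured the gene. Its mean was 32.1 in crush eyes and 54.3 in control eyes, so the gene passed the minimum of 40 only through the control eyes, where it was high, and a call of lower was favored by that filter. With 1 gene of 51 called, against 5.03% of all genes, this is no more than the background.

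The mitotic kinesins numbered 9, of which 6 were lower and 3 higher on average, with a median of -0.22. In pair 2 alone 8 of the 9 were lower, with a median of -0.42, compared with -0.00 in pair 1 and 0.00 in pair 3. Of the 7 measured proliferation genes of a list of 10, 5 were higher and 2 lower on average with a median of 0.05. The 2 lower ones were Mki67 (-0.56) and Ccnb2 (-0.36), named after their values were seen, and limma called none at an unadjusted p under 0.05 or after adjustment.

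Cytoplasmic dynein 1, the motor for transport back to the soma, showed differences close to 0 in its subunits, and none was called. The heavy chain Dync1h1, which holds the motor domain, had 6119.8, 3585 and 5227 in crush eyes and 5773, 5077 and 5462 in control eyes. The low value was that of crush eye 2, and the difference was -0.16 (-0.59 to 0.27), or 0.01 without pair 2. A dim second probe set of the gene, with 83.8, 80.5 and 105 in crush eyes and 55.1, 68.8 and 67.1 in control eyes, did not overlap between the groups and was called higher at 0.49 (SE 0.16, limma adjusted p = 0.642).

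The intermediate chains hold the complex together and bind dynactin. Dync1i1, the form found mainly in neurons, had 6223, 5884 and 5703 in crush eyes and 5887, 6318 and 5823 in control eyes, a difference of -0.02 (-0.36 to 0.33). Dync1i2, present in most cells, had 5844, 5235 and 5429 in crush eyes and 6125, 5785 and 5298 in control eyes, a difference of -0.06 (-0.40 to 0.29). The values of both genes overlapped between the groups.

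The light intermediate chains connect dynein to its cargo adaptors. Dync1li1 had 203, 189.8 and 201 in crush eyes and 208, 184 and 196 in control eyes, with a difference of 0.02 (-0.32 to 0.35). Dync1li2 had 2434, 2147 and 2059.6 in crush eyes and 2352, 2189 and 2203 in control eyes, with a difference of -0.03 (-0.37 to 0.32). For all 5 dynein 1 genes the interval lay within 1 either way, and for 4 of them within 0.5.

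Cytoplasmic dynein 2 returns material inside cilia, and both measured subunits, the heavy chain Dync2h1 (-0.11) and the light intermediate chain Dync2li1 (-0.24), were lower in all 3 pairs with overlapping groups and intervals that included 0. In pair 2 they were at -0.30 and -0.63, and without pair 2 their averages were -0.02 and -0.04. The 6 dynein light chain genes, which encode small subunits of the dynein tail, had differences between -0.61 and -0.01 and a median of -0.04. The lowest belonged to Dynlrb2, the roadblock form, with 96.0, 37.1 and 86.3 in crush eyes and 111, 104 and 94.2 in control eyes. Dynlrb2 was lower in all 3 pairs, at -1.48 in pair 2, -0.21 in pair 1 and -0.13 in pair 3, and the average of -0.61 (-1.37 to 0.16) did not pass (limma adjusted p = 0.648). The near-identical copies of Dynlt1 share probe sets and cannot be told apart by these, and 3 probe sets that carry several of their symbols gave 0.11, 0.05 and -0.01. One copy, Dynlt1f, is counted among the 6 genes through a dim probe set with a mean of 74.2 and a difference of -0.23. That probe set is also marked as open to other transcripts.

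Dynactin, the complex that activates dynein and links it to cargo, was represented by 6 subunits, of which 2 were higher and 4 lower on average, and none was called. Dctn1, the p150Glued subunit that binds microtubules and dynein, had 5921, 4820.2 and 6104 in crush eyes and 5950.2, 6044 and 5497 in control eyes, a difference of -0.06 (-0.46 to 0.34). Dctn2, or dynamitin, had 4184, 4002 and 3793 in crush eyes and 3723, 3773 and 3854 in control eyes. Its difference was 0.08 (-0.27 to 0.42), and its groups overlapped through the lowest crush and the highest control value.

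Dctn3, a subunit of the dynactin shoulder, showed how far a single array could move a value. It had 4855, 2191 and 4695 in crush eyes and 4552, 4481 and 4777 in control eyes, so that crush eye 2 alone was far from the rest. The difference was -0.32 (-0.97 to 0.33) over the 3 pairs and 0.03 without pair 2. Dctn4, at the pointed end of the dynactin filament, had 4023, 2881 and 3873 in crush eyes and 3721, 4342 and 4194 in control eyes, a difference of -0.20 (-0.66 to 0.27), again with its low value in crush eye 2.

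Dctn5 and Dctn6 also belong to the pointed end. Dctn5 had 1494, 1195 and 1253 in crush eyes and 1346, 1217 and 1331 in control eyes, a difference of 0.01 (-0.34 to 0.37). Dctn6 had 6833, 5908 and 6928 in crush eyes and 6916, 7071 and 6979 in control eyes. Dctn6 was lower in all 3 pairs, at -0.26 in pair 2, -0.02 in pair 1 and -0.01 in pair 3, and the average was -0.10 (-0.45 to 0.26).

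The array of crush eye 2 held all of the isolated low values of the motor genes. On that array 5 of the 51 motor genes were more than 1 log2 unit below each of the other 5 arrays. They were Kif3b, Kif6, Kif9, Dynlrb2 and Dctn3. The same held for 568 of all 15103 genes, a smaller share. No motor gene was that far below the rest on any other array. Among these 5, Kif6 and Kif9 are kinesins of motile cilia and Kif3b belongs to kinesin-2. Dynlrb2 is a dynein light chain and Dctn3 is a subunit of dynactin. Whether these genes have a role in common was not tested. Kif9 was at 14.1 in crush eye 2, below the limit of 16 that was set for low values.

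**Figure D4:**
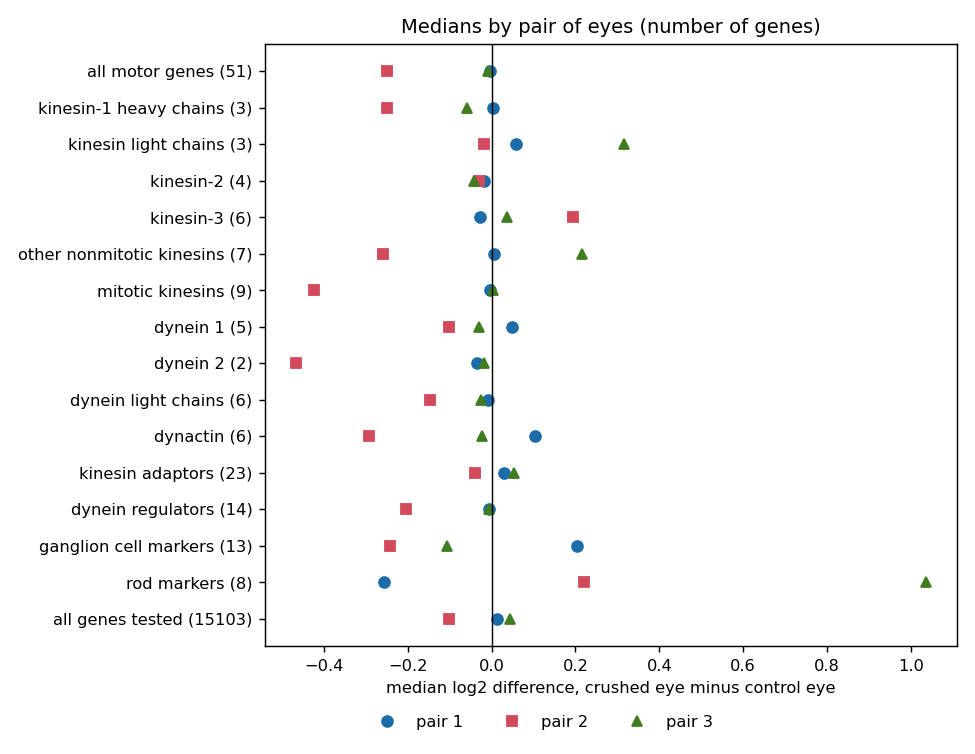
Median of the log2 differences (crushed minus control eye) in each pair (symbols) for all motor genes, for each role class, for kinesin adaptors, dynein regulators, ganglion cell markers and rod markers, and for all genes tested, with the number of genes in parentheses. The motor genes as a whole lie at -0.00, -0.25 and -0.01 in pairs 1, 2 and 3, and the rod markers spread between -0.26 in pair 1 and 1.04 in pair 3.

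Proteins that bind the motors to cargo or regulate them were looked at as 2 lists. Of 25 kinesin adaptors and cargo linkers 23 were measured, with a median of 0.03, and 2 were called higher and none lower at an unadjusted p under 0.05. Mapk8ip3, or JIP3, which links kinesin-1 and dynein to JNK and to vesicles in axons, had 546, 521 and 506 in crush eyes and 355, 332 and 465 in control eyes. All crush values were above all control values, and the difference was 0.46 (SE 0.17, limma adjusted p = 0.642). Ppfia4, a liprin-alpha that serves as a scaffold at synapses, had 482, 507 and 644 in crush eyes and 363, 402 and 427 in control eyes. Its groups did not overlap either, with a difference of 0.45 (SE 0.14, limma adjusted p = 0.642). These are 2 of 23 genes, and 2.76% of all genes were called higher.

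The second list held the regulators and activating adaptors of dynein, such as Pafah1b1 (Lis1), Ndel1, Bicd2 and Hook3. Of 20 listed genes 14 were measured, 4 higher and 10 lower on average, with a median of -0.09, and limma called 0 of them at an unadjusted p under 0.05 or after adjustment. Of the 3 C-terminal kinesins, which walk toward the minus end, 1 was higher and 2 were lower, and none was called. Axonemal dyneins, which beat cilia and flagella, gave 11 measured genes with a median of -0.21. Of these Dnaic2, an intermediate chain, was called lower, with 155, 87.4 and 167 in crush eyes and 188, 157 and 202 in control eyes, a difference of -0.47 (SE 0.18, limma adjusted p = 0.642). This is 1 of 11 genes, beside 2.27% of all genes called lower.

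The medians of the 13 RGC markers were 0.20, -0.24 and -0.11 in pairs 1, 2 and 3, and in pair 1 all 13 were higher in the crushed eye. None of them was called at an unadjusted p under 0.05 or after adjustment in limma. The 8 rod markers were all higher on average, with medians of -0.26, 0.22 and 1.04 in pairs 1, 2 and 3, and 3 of 4 pigment epithelium markers were called higher, led by Ttr at 2.32 (limma adjusted p = 0.642), beside 2.76% of all genes. Of the other lists, 2 of 4 bipolar markers (Cabp5 at -0.66 and Gng13 at -0.49) and 1 of 7 Muller cell markers (Aqp4 at -0.36) were called lower, beside 2.27% of all genes (limma adjusted p = 0.642 for each).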

How the data were processed

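Expression was measured on 6 Affymetrix mouse arrays, 1 per eye. The authors scaled them to an invariant set and modeled perfect match and mismatch probes in dChip, and deposited linear intensities of 45101 probe sets. Many low values in the deposited table equal 1, and the number of arrays limits the precision. All 6 columns matched a sample by title. Probe sets were named from GEO's platform annotation, and the 51 symbols matched RefSeq by Entrez ID. Here intensities under 16 were raised to 16 and log2 transformed, and 64 control probe sets were left out. With eye number as a block, limma 3.58.1 (lmFit, eBayes, under R 4.3.3) tested the 33169 probe sets whose mean reached 40. Benjamini-Hochberg adjustment covered all of them. The total degrees of freedom after moderation were 5.25, the residual ones of the fit plus those of the prior. A call is an unadjusted p under 0.05, as in the study's paired test. The fit was tested on simulated data.

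Eyes of the same number were taken as a pair, since controls were contralateral eyes of the same animals and the residuals of same-numbered eyes correlated by 0.15, 0.13 and 0.30. The highest correlations of crush eyes 1, 2 and 3 with a control eye of another number were 0.13, -0.04 and -0.09. The labels name no animal, so the pairing is an assumption. Values per eye were given for genes that were called, that moved one way in all 3 pairs by at least 0.5, that belong to kinesin-1, 2 or 3, dynein 1 or dynactin, or that had another probe set called in the opposite direction. The values of Kif12 and Kif21b, and a single value of Kif9, were given outside these rules. Of related lists only called genes were given values per eye, while Mki67 and Ccnb2, which were not called, were named with their averages. Members and lists were chosen with earlier results of these data known. Alternatives covered the block, the floor, the intensity filter, normalization, the variance prior, the methods' t-test, all probe sets of a gene, and each pair, or crush array 2 or 3, left out. No genome build is named for the arrays in the sources used here, so coordinates were not used.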

Additional observations from a re-analysis of the deposited data

How the results depend on the processing

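The number of called motor genes depended on the processing, and no setting gave a call after adjustment of the p-value among them. It was 1 with the eye number as a block and also 1 with no replicate block (Kif15 in both). With a minimum mean of 100 it was 1 of 44 genes, but this was Kif12, since Kif15 was below the minimum. It was 2 with a floor of 64 and 2 with no intensity filter (Klc4 and Kif1c, both higher), 2 after quantile normalization and 2 after scaling each array to the same median (Kif3b and Kif15, both lower), 4 with an intensity trend and robust prior (Kif3b, Kif12 and Kif15 lower, Kif1c higher), and 4 with the mean over all probe sets of a gene (Kif1c, Kif12, Kif15 and Kif2c, all lower). The methods' t-test called 0 motor genes at its threshold and 1671 of 33169 probe sets, 0 of them after Benjamini-Hochberg. Leaving out a pair or a crush array gave 0 to 2. The criteria of the study's methods were met by 1 gene with a floor of 64, 1 with no filter, 1 after quantile normalization, 1 after median scaling, 2 with the trend and robust prior, and 0 to 1 with a pair or crush array left out. Kif15 was not called with no filter or by the methods' t-test, and with a floor of 64 all its values were at the floor. The mean over the probe sets of Kif1c took in its dimmest one, which reached the minimum of 40 only through the control eyes. The cause of these differences was not tested.

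Of 447 values of the 30 named genes under the alternatives, 36 had the opposite direction, and 1 of these passed the threshold, Kif1c at -0.50 with the mean of its probe sets. That mean also turned Kif5b (-0.033), Kif3c (-0.10), Kif13b (0.33), Kif22 (-0.25), Dync1h1 (0.17), Dync1li2 (0.025) and Dctn5 (-0.090). For Kif1c and Kif13b the mean takes in a dim probe set that reached the minimum of 40 in 1 group alone. The call of Kif1c and the turn of Kif13b under this setting therefore carry no weight. Quantile normalization turned Dync1i1 (0.027), Dync1li1 (-0.0066) and Dctn5 (-0.0060). With a pair or crush array left out, the log2 difference ranged between -0.0050 and 0.10 for Kif22, -0.057 and 0.078 for Dctn5, -0.18 and 0.040 for Kif5a, -0.13 and 0.063 for Klc1, -0.11 and 0.00023 for Kif3a, -0.085 and 0.18 for Kif1a, -0.23 and 0.00029 for Kif1b, -0.28 and 0.059 for Dync1h1, -0.066 and 0.025 for Dync1i1, -0.17 and 0.072 for Dctn1, -0.53 and 0.053 for Dctn3, -0.16 and 0.16 for Klc3, -0.31 and 0.037 for Kif17, -0.062 and 0.025 for Dync1li2, and -0.049 and 0.18 for Kif13a. The median over the motor genes ranged between -0.11 and 0.02. With 3 pairs and dim probe sets close to the floor, any value within an interval given remained compatible with these data. Differences of that size could have been missed.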
